A study of Mus musculus with 12 samples.

Results

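The clustered replication-dependent histone genes encode the core histones H2A, H2B, H3 and H4 and the linker histone H1 that package newly made DNA. They were chosen here by name: every gene whose symbol in the authors' comparison tables starts with Hist1h, Hist2h, Hist3h or Hist4h, pseudogenes left out. This gave 56 genes of the 55335 gene rows counted, namely 5 of H1, 13 of H2A, 15 of H2B, 10 of H3 and 13 of H4, of which 47 belong to the Hist1 cluster, 6 to Hist2, 2 to Hist3 and 1 to Hist4. All 56 could be tested in RNA-seq and 55 in ribosome footprints, where Hist3h2a had too few reads.

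The study profiled thymocytes, the developing T cells of the thymus, from 6-week-old mice that were either wild type (WT) or lacked the microRNA pair miR-181a/b-1 (knockout, KO). Each of the 4 groups, WT and KO in RNA-seq and in ribosome footprinting, had 3 libraries, and both assays used cells placed in 0.1 mg/ml cycloheximide, which halts ribosomes on the mRNA. Footprinting sequences the mRNA fragments that ribosomes shield from nuclease, so its reads follow translation. The labels give no strain, sex or source of the KO allele, and do not pair RNA-seq with footprint libraries of the same mouse.

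Replication-dependent histone genes are transcribed in S phase, when the cell copies its DNA. Their mRNAs end in a conserved stem-loop bound by SLBP rather than in a poly(A) tail, and they are degraded when DNA synthesis stops. The gene copies are clustered, intron-less and similar in sequence, and many H2A and H2B genes lie side by side and are transcribed away from each other. Dividing thymocytes express them strongly, whereas replacement histones such as H3.3 are made throughout the cell cycle from ordinary polyadenylated mRNAs.

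The results below turn on a few of these genes, and their upstream sequences are shown first. Hist1h4m rose in KO in both assays, 152-fold in footprints (exact 95% counting interval 126 to 187), and Hist1h4n has nearly the same upstream sequence, so the pair is set side by side. Hist4h4, Hist1h2ac and Hist1h3i fell in KO footprints, a call they kept with the replicate number as a block, that is, as an added term of the fit. A joint fit of all 12 libraries kept the calls of Hist1h2ac and Hist1h3i and lost that of Hist4h4. Each line gives the 250 bases before the transcription start, from RefSeq on GRCm38.p6, 5′ to 3′ on the gene's own strand. Capitals mark matches on either strand to 4 short motifs. These are the octamer ATTTGCAT of H2B promoters, the CCAAT box, the TATA box form TATAAA, and the letters GTCCG found in H4 promoters.
Hist1h4m, chr13:21811496-21811745, plus strand: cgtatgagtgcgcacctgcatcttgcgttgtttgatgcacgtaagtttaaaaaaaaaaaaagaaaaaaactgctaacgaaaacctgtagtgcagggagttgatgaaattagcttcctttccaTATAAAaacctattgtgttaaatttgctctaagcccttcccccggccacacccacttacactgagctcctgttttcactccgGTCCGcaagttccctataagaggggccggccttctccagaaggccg
Hist1h4n, chr13:21832198-21832447, minus strand: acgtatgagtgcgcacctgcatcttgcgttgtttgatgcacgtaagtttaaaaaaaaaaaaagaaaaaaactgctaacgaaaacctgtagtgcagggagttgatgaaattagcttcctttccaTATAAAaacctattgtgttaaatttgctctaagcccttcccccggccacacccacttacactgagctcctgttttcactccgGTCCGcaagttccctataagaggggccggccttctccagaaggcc
Hist4h4, chr6:136804432-136804681, minus strand: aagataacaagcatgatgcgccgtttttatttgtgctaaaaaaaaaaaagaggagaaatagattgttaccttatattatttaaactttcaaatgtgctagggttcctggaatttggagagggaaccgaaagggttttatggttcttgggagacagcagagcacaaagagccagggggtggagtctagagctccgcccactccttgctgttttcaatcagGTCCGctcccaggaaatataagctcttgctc
Hist1h2ac, chr13:23683960-23684209, minus strand: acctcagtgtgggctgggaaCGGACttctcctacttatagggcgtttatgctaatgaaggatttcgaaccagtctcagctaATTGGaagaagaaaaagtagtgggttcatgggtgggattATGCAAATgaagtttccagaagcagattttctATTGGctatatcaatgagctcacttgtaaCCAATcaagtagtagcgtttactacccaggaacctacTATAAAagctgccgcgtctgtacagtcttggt
Hist1h3i, chr13:21783398-21783647, minus strand: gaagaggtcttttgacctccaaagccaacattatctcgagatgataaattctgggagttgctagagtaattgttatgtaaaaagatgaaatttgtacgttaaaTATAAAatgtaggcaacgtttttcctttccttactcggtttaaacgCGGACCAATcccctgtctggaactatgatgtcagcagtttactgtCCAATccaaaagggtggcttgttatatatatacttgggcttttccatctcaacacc

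The first pair of sequences is the same stretch shifted by 1 base: all 249 bases that overlap before the start are identical, and over the 299 overlapping bases that include the first transcribed ones there is 1 mismatch. Hist1h4m and Hist1h4n lie on opposite strands. Aligned the same way, the promoters of the 10 other H4 genes with a RefSeq window matched Hist1h4m at 89 to 148 bases. Both sequences carry the letters TATAAA, near the middle of the stretch shown and not close to the start, and the H4-type GTCCG.

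Across the members, 51 of 56 had a promoter window, counted here over the 250 bases before and the 50 bases after the start. The motif GTCCG, part of the H4 promoter element bound by the transcription factor HINFP, was present in 12 of 12 H4 windows, in 10 of the 39 windows of the other types and in 23.4% of all 32851 promoter windows of the table. CCAAT showed the opposite split, with 39 of 39 windows of H1, H2A, H2B and H3 and 3 of 12 of H4, against 37.4% of all windows. The octamer, recognised by POU2F1 (Oct-1), occurred in 6 of 13 H2A and 6 of 13 H2B windows, in none of H1, H3 and H4, and in 1.74% of all windows. TATAAA occurred in 32 of 51 members against 13.6%. These are matches of letters, not measured binding sites; the reverse complement of GTCCG can overlap a CCAAT box, as in Hist1h3i.

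Reads in genes numbered 4479182 to 8180286 per RNA-seq library and 4069968 to 17859770 per footprint library, the lowest in KO replicate 3. The deleted locus was visible in footprints, where the Mir181a-1 row fell from 148 ± 16.8 to 0.828 ± 0.317 CPM (SD, n = 3; CPM being the gene's reads scaled to the library's TMM-adjusted total). In RNA-seq the row had 57 reads in WT and 67 in KO and did not fall (log2 fold change 0.33, edgeR FDR 0.756). It did not show the deletion there, and the RNA-seq labels stay unchecked by it. Thymocyte markers summed to 14740 to 16889 CPM in every RNA-seq library, against 61.2 to 75.2 for myeloid and dendritic, 12.2 to 23.1 for B-cell and 17.8 to 25.4 for thymic epithelial markers. The sums of thymic epithelial markers were lower in KO in both assays without overlap (76.8 to 84.2 CPM in WT and 61 to 72.9 CPM in KO footprints). In footprints this followed mainly Epcam, at 38.3 CPM in WT and 26.2 CPM in KO, with Krt5 at 17.7 and 16.6 CPM. The footprint means of Krt8, Foxn1, Aire and Psmb11 were not lower in KO, and the list's median log2 fold change was -0.09. In RNA-seq the mean of every listed epithelial gene was lower in KO. The sums of erythroid markers were lower in KO RNA-seq (76 to 90.9 against 46.6 to 58.4 CPM), and those of stromal and endothelial markers higher (208 to 211 against 234 to 241 CPM). The last sum followed 1 gene, Pecam1, at 171 CPM in WT and 203 CPM in KO, while the means of the other 5 were lower in KO and the list's median log2 fold change was -0.18. No row of these lists was at 0 reads over all libraries of an assay, and their part in the results was not tested. The deposited counts of same-numbered WT and KO libraries mirror each other: when each library is set against the mean of its group, the differences of a WT library and of its KO namesake correlated over the histone genes at -0.99 to -0.95 in RNA-seq and at -0.99 in footprints, which is a correlation across genes. The authors named the counts as adjusted without saying how, so SDs, SEs and p-values describe the spread of the deposited values. This spread may be smaller than that between mice and, for some genes of few reads, is smaller than counting error alone would give.

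Hist1h4m (ENSMUSG00000069306.5), an H4 gene of the Hist1 cluster, was nearly absent from WT libraries and present in all KO libraries. RNA-seq counted 2, 0 and 1 reads of it in the WT libraries and 131, 96 and 167 in the KO libraries. In CPM these were 0.318, 0 and 0.138 in WT and 19.2, 22.7 and 20.8 in KO. No WT library came near a KO library. From the 3 and 394 reads of the groups, the KO level was 143 times that of WT, with an exact 95% counting interval of 48.5 to 695, and edgeR gave an FDR of 0.000373.

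Footprints showed the same gene at 2.58, 1.85 and 2.46 CPM in WT and at 312, 373 and 327 CPM in KO. The ratio over 104 and 10436 reads was 152 (exact 95% counting interval 126 to 187), which is 7.21 as edgeR's log2 fold change (SE 0.13, edgeR FDR 7.22e-06). Footprints changed by 0.17 more than RNA on the log2 scale (SE 2.63), which was not called (edgeR FDR 0.988). With this SE and 3 WT reads in RNA-seq, the test could not tell whether the assays changed alike. With the replicate number as a block the calls stood at an FDR of 1.40e-05 in RNA-seq and 4.13e-09 in footprints, and they stood without any of the 6 libraries of each assay. The authors' deposited table lists the same direction, with log2 fold changes of 2.76 in RNA-seq and 6.04 in footprints. Both lie below edgeR's values, 6.99 in RNA-seq and 7.21 in footprints, and why was not tested.

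**Figure D1:**
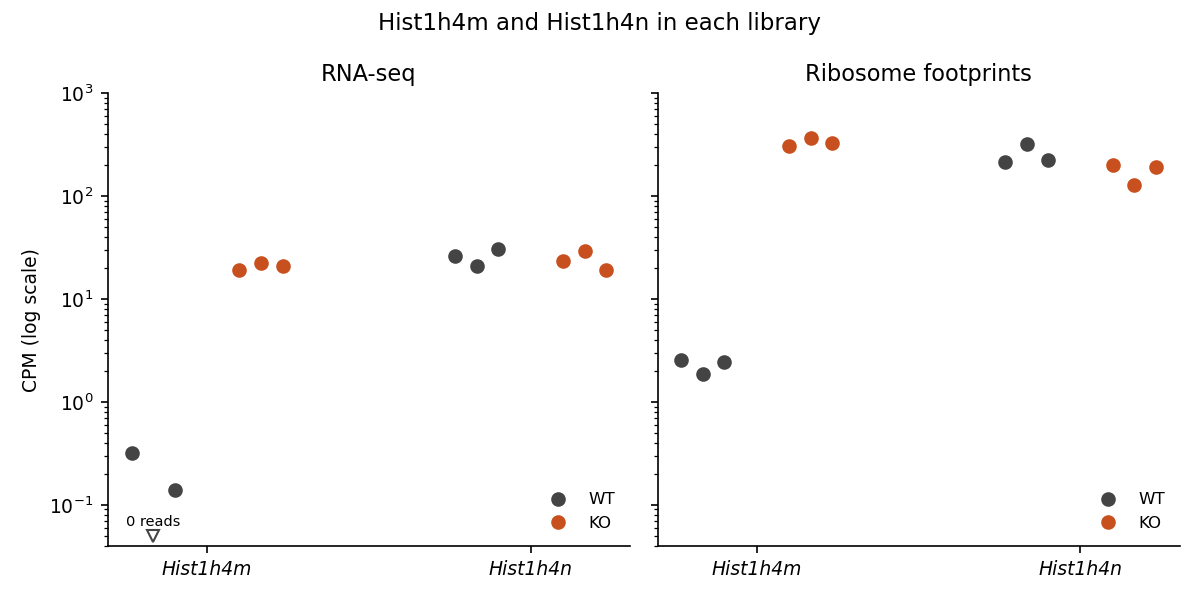
CPM of Hist1h4m and Hist1h4n in each library, RNA-seq on the left and footprints on the right, on a log scale. Each point is 1 library; the open triangle marks the WT library with 0 reads, drawn below the lowest value. Hist1h4m is at 0.318 CPM or less in WT RNA-seq and at 19.2 CPM or more in KO, while Hist1h4n is at a similar level in both genotypes in RNA-seq.

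Hist1h4n (ENSMUSG00000069305.3), the gene with the matching promoter, was not called in either assay. It had 26.2, 21.2 and 30.4 CPM in WT against 23.6, 29.1 and 19.2 CPM in KO RNA-seq, overlapping groups. In footprints it had 216, 321 and 224 CPM in WT against 201, 129 and 194 CPM in KO, groups that did not overlap but differed by -0.55 on the log2 scale (SE 0.22) with an edgeR FDR of 0.136, so the gene was not called. Summed, the pair had 256 ± 58.1 CPM in WT against 512 ± 9.93 CPM in KO footprints, and 26.1 ± 4.7 and 44.9 ± 6.19 CPM in RNA-seq (SD, n = 3). KO libraries held more reads of the pair as a whole in both assays, without overlap. How far the transcripts of the pair differ was not analysed here; reads that align to several places were set aside in the counting, so the split between near-identical copies is uncertain.

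Hist1h4m made up 0.0157% to 0.0229% of all H4 footprints in WT and 2.97% to 3.64% in KO, and 0% to 0.0285% and 1.64% to 2.94% of H4 reads in RNA-seq. All H4 genes together had 11532 ± 662 CPM in WT against 10418 ± 546 CPM in KO footprints (SD, n = 3), and the groups overlapped (10782 and 11028 CPM). With Hist1h4m left out, a choice made after its values were seen, the H4 sum was 12030, 11780 and 10780 CPM in WT against 9661, 9881 and 10700 CPM in KO, a log2 difference of -0.19 between groups that no longer overlapped. In RNA-seq the H4 sum varied more between libraries than between genotypes, from 1005 to 1560 CPM in WT and from 709 to 1302 CPM in KO.

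Apart from Hist1h4m, the main edgeR fit, without a block, called footprints of 8 histone genes lower in KO and of none higher. In the joint fit, without the low-count filter or at an FDR of 0.1, edgeR also called Hist1h2bh higher. DESeq2 called 12 lower and, besides Hist1h4m, the H2B genes Hist1h2bh and Hist1h2bk higher. The edgeR call was an FDR under 0.05 by edgeR, which 17.6% of all 13509 genes tested in footprints passed; 9 of the 55 histone genes, or 16.4%, passed it, a share close to that of all genes. With the replicate number as a block, 3.02% of all genes and 4 histone genes, or 7.27%, were called. The median log2 fold change was -0.13 over the histone genes and -0.01 over all genes, and 36 of 55 histone genes had a negative value. Groups did not overlap for 13 histone genes, 12 of them lower in KO; in all genes tested this share was 38.1%.

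Hist4h4, the sole gene of the Hist4 locus and a source of H4, had 545, 555 and 570 footprint CPM in WT and 396, 389 and 377 in KO. Its 6 values fell into narrow, well-separated groups. The log2 fold change was -0.52 (SE 0.04, edgeR FDR 0.000644, and 0.00927 with the replicate block). A joint fit of all 12 libraries did not call the gene. In RNA-seq the gene ranged from 49.2 to 85.1 CPM in WT and from 33.9 to 68 CPM in KO, and was not called (log2 fold change -0.38, SE 0.29, edgeR FDR 0.478).

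Hist1h2ac, an H2A gene, had 860, 763 and 882 footprint CPM in WT and 519, 581 and 502 in KO. Every KO library lay below every WT library, at -0.64 on the log2 scale (SE 0.08, edgeR FDR 0.00401, and 0.00795 with the block). Its RNA was low and overlapping, 30.7 ± 7.11 CPM in WT against 25.7 ± 7.24 CPM in KO (SD, n = 3).

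Hist1h3i, the H3 gene with the most footprints, had 1719, 1800 and 1895 CPM in WT against 1405, 1342 and 1266 CPM in KO. Its groups did not overlap, and its log2 fold change was -0.43 (SE 0.06, edgeR FDR 0.0051, and 0.0374 with the block). RNA went the other way in its mean, 56.1 ± 9.02 CPM in WT against 63.2 ± 11.7 CPM in KO (SD, n = 3), with overlapping libraries. The difference between the assays was -0.59 on the log2 scale, with an unadjusted p of 0.00551 from edgeR's model over all genes and an FDR of 0.173, so translation of Hist1h3i was not called as changed.

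The other 5 falls lost the call with the block. Hist1h1d, a linker histone gene, had 4215, 4273 and 3830 footprint CPM in WT and 3328, 3275 and 3626 in KO (log2 fold change -0.27, edgeR FDR 0.0301, and 0.188 with the block). Hist1h2ah, an H2A gene, had 367, 444 and 474 CPM in WT and 351, 295 and 273 in KO (-0.48, edgeR FDR 0.0433 and 0.0814). The H2B gene Hist1h2bp stood at 118, 118 and 114 CPM in WT and 97.3, 96.9 and 100 in KO (-0.25, edgeR FDR 0.00573 and 0.167). In all 3 genes each KO library lay below each WT library.

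Hist1h3g, a source of H3, had 419, 450 and 327 footprint CPM in WT and 256, 235 and 318 in KO (log2 fold change -0.58, edgeR FDR 0.0452, and 0.0719 with the block). The H4 gene Hist2h4 had 1223, 1320 and 1235 CPM in WT and 1077, 995 and 1060 in KO (-0.27, edgeR FDR 0.0142 and 0.154). The lowest WT and highest KO library of Hist1h3g were close, while those of Hist2h4 were well apart. Calls were lost without WT replicate 1 or 2 or KO replicate 1 or 2 for Hist1h1d (edgeR FDR 0.0792 to 0.104) and Hist1h3g (0.0993 to 0.128), without replicate 2 or 3 of either genotype for Hist1h2ah (0.097 to 0.117), and without KO replicate 2 for Hist2h4 (0.0524).

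**Figure D2:**
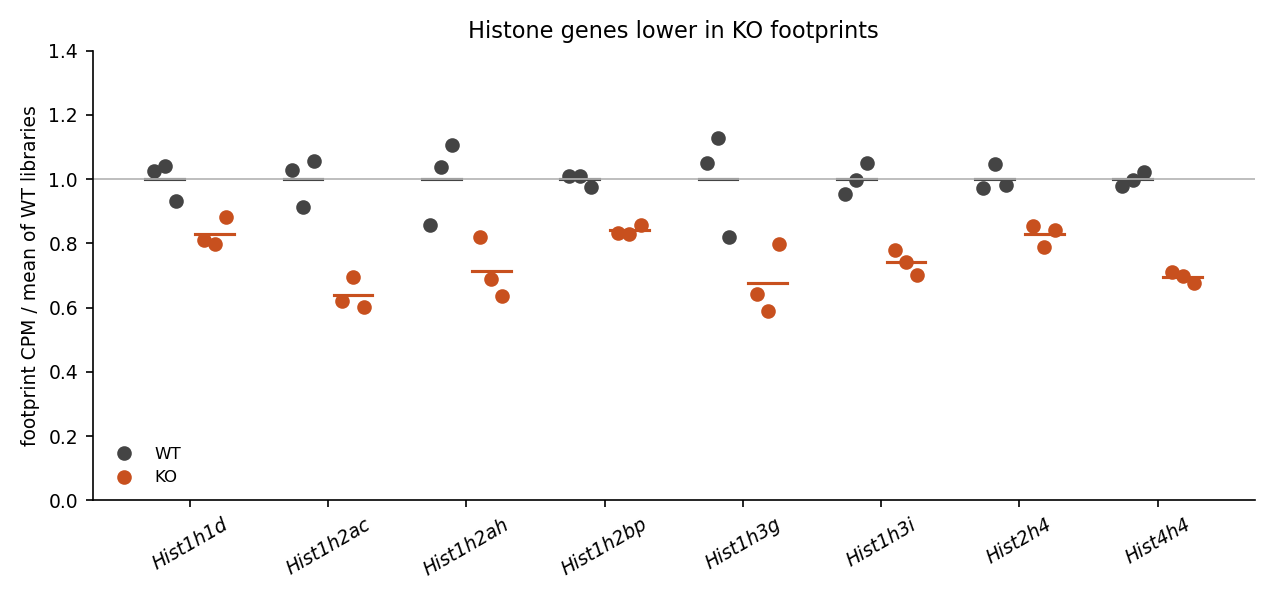
Footprint CPM of the 8 histone genes lower in KO, each divided by the mean of its 3 WT libraries. Points are libraries and short lines group means; in each gene all 3 KO libraries lie below all 3 WT libraries, furthest apart in Hist1h2ac and Hist4h4.

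In RNA-seq, 2 histone genes fell and Hist1h4m was the 1 that rose. These 3 of 56 are 5.36%, against 6.91% of all 13652 genes tested. With the replicate block 0.806% of all genes were called, and Hist1h4m alone of the histone genes. The median log2 fold change of the histone genes was -0.17, that of all genes -0.00, and 42 of 56 values were negative. Groups did not overlap for 13 histone genes, 10 of them lower in KO, against 30.9% of all genes.

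Hist3h2ba, the H2B gene of the Hist3 locus, had 18.8, 18.6 and 17.8 CPM in WT RNA-seq and 11.8, 11.8 and 12.3 CPM in KO. The groups were far apart for the spread of the deposited values (log2 fold change -0.61, SE 0.07, edgeR FDR 0.00826). That spread was smaller than counting error alone would give for the 380 WT and 230 KO reads, so it overstates the separation. The block gave an FDR of 0.252, DESeq2 an adjusted p of 0.0767 and the omission of KO replicate 1 an FDR of 0.0568. Its footprints were 99.1 ± 13.7 CPM in WT against 78.8 ± 11.1 CPM in KO (SD, n = 3), overlapping and not called by edgeR (FDR 0.102), while DESeq2 called them lower (adjusted p 0.0332). Hist1h4h, an H4 gene, had 111, 118 and 135 CPM in WT against 90.4, 85.5 and 72 CPM in KO RNA-seq (log2 fold change -0.56, SE 0.11, edgeR FDR 0.0372). That call was lost with the block (0.163) and without any 1 of the 6 libraries (0.0752 to 0.0988). Its footprints ranged from 1229 to 1845 CPM in WT and from 905 to 1406 CPM in KO, so the groups overlapped.

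**Figure D3:**
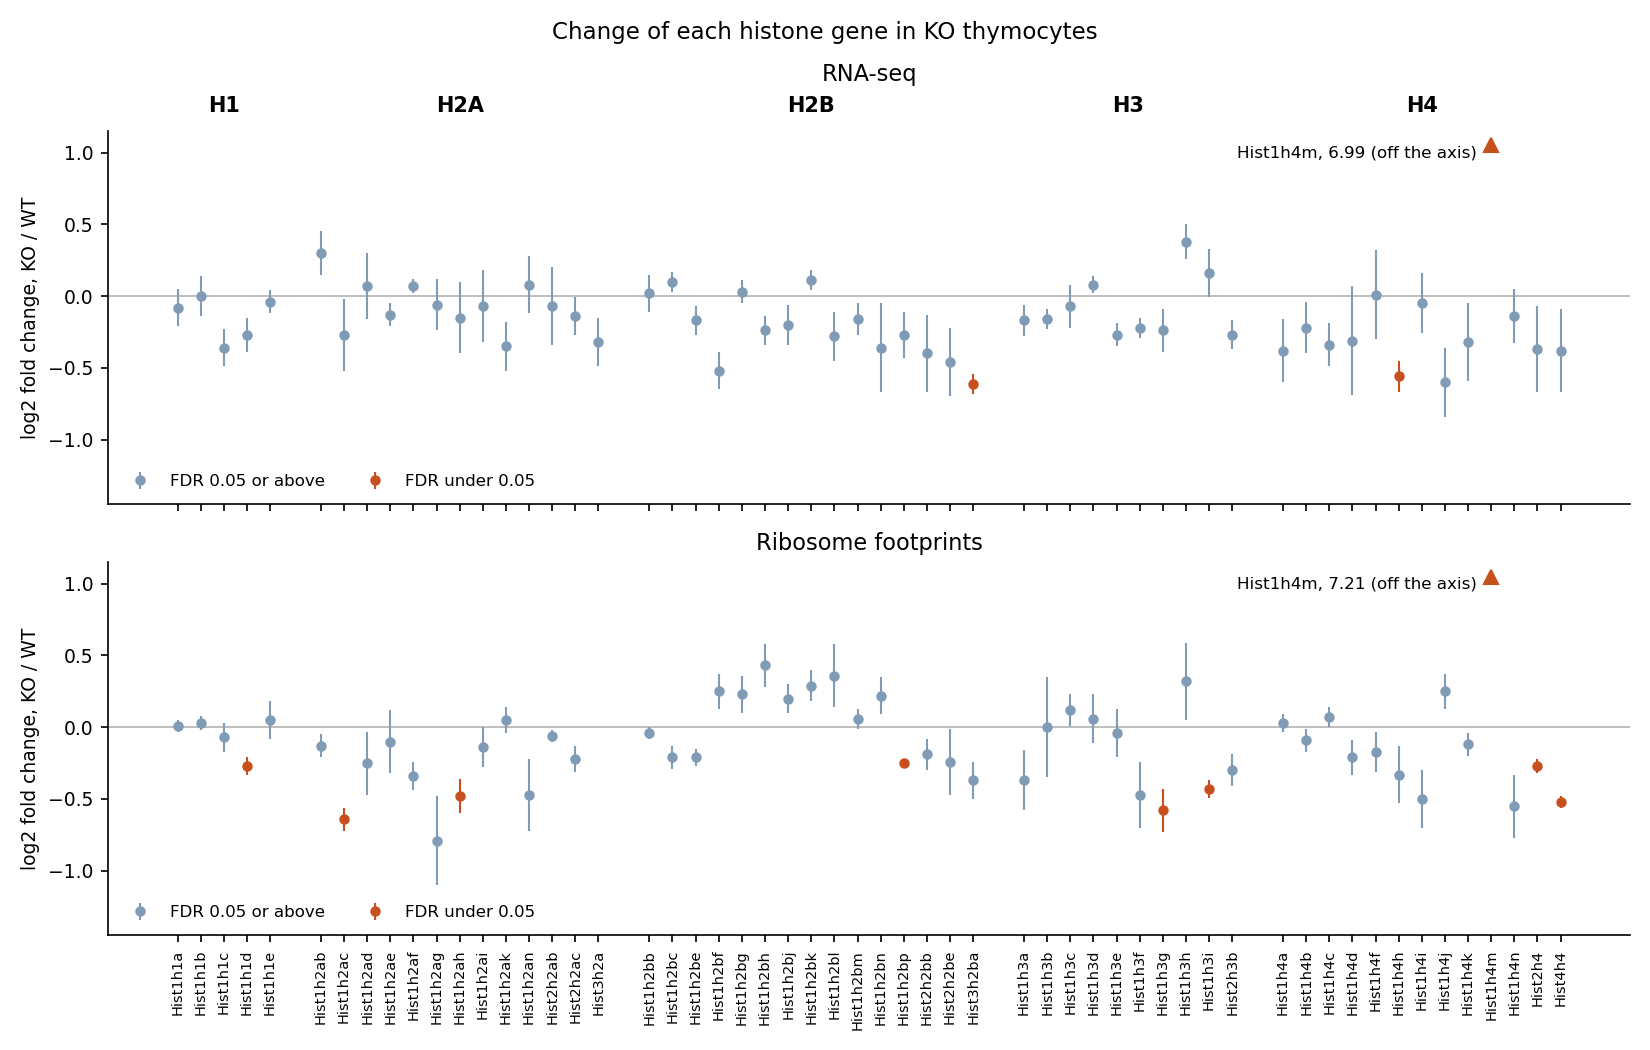
Log2 fold change, KO over WT, of each histone gene tested, by type, in RNA-seq (top) and footprints (bottom). Points are edgeR estimates with SE bars, orange where the FDR is under 0.05; the triangles stand for Hist1h4m, which lies off the axis at 6.99 and 7.21. Most RNA-seq points lie below 0, and in footprints the median is -0.24 for H2A and 0.06 for H2B.

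Of the 3 genes with the most footprints in each type, edgeR called Hist1h1d and Hist1h3i lower in footprints, as given above, and none of the others. Among linker histones, Hist1h1a had 2860 ± 87.3 CPM in WT against 2878 ± 89.7 CPM in KO footprints, and Hist1h1c had 4639 ± 459 and 4409 ± 425 CPM (SD, n = 3). Among H2A genes, Hist1h2ab had 1312 ± 112 and 1199 ± 102 CPM, Hist1h2ak 974 ± 87.2 and 1010 ± 87.5 CPM, and Hist1h2af 1330 ± 129 and 1048 ± 104 CPM. Hist1h2af just missed the threshold (log2 fold change -0.34, SE 0.10, edgeR FDR 0.0554) although its groups did not overlap, and passed it under DESeq2 (adjusted p 0.00237).

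Among H2B genes, Hist1h2bm had 1172 ± 79 footprint CPM in WT and 1222 ± 79.3 in KO, Hist2h2bb 1123 ± 126 and 982 ± 111, and Hist1h2be 1122 ± 58 and 970 ± 53 (SD, n = 3). Of these, Hist1h2be was nearest to a call, at an edgeR FDR of 0.0523, and DESeq2 called it lower (adjusted p 0.0379). Hist1h3e and Hist1h3f, which encode H3, had 1138 ± 206 and 736 ± 178 CPM in WT and 1106 ± 197 and 533 ± 127 CPM in KO, overlapping in both. The most footprints of any H4 gene were those of Hist1h4f, 4044 ± 599 CPM in WT against 3599 ± 534 CPM in KO, followed by Hist1h4d with 2129 ± 272 and 1836 ± 236 CPM. Neither H4 gene was called in either assay.

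Summed over all 56 genes, histone reads made up 0.573% ± 0.0795 of the reads in genes in WT RNA-seq and 0.492% ± 0.0752 in KO (SD, n = 3), or 5604 ± 755 and 5073 ± 788 CPM. In footprints they made up 4.84% ± 0.277 in WT and 4.43% ± 0.253 in KO, or 48380 ± 2688 and 44513 ± 2459 CPM. The libraries of the genotypes overlapped in both assays: the lowest WT footprint library held 46107 CPM and the highest KO library 46603. In such bulk samples fewer cells in S phase and less histone mRNA per cell cannot be told apart.

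By type, the footprint sums were 15556 ± 862 CPM of H1 in WT and 14762 ± 764 in KO, 7429 ± 674 and 6237 ± 560 CPM of H2A, 7296 ± 444 and 7364 ± 481 CPM of H2B, and 6566 ± 911 and 5732 ± 841 CPM of H3 (SD, n = 3). The summed log2 difference was furthest from 0 in H2A (-0.25) and smallest in H2B (0.01). In RNA-seq the order differed, with -0.02 for H2A, -0.19 for H2B, -0.15 for H1, 0.00 for H3 and -0.21 for H4. Libraries of the genotypes overlapped for each of the 5 types in both assays.

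The gene-by-gene values split H2A from H2B in the same way. In footprints 11 of 12 H2A genes had a negative log2 fold change, with a median of -0.24, while 8 of 15 H2B genes had a positive one, with a median of 0.06. In RNA-seq the medians were -0.07 for H2A and -0.24 for H2B. The change in translation had a median of -0.32 over H2A genes and of 0.22 over H2B genes. edgeR called none of these changes in translation, and DESeq2 called that of the H2B gene Hist1h2bf higher (0.77, adjusted p 0.0285). In footprints, where 17.6% of all genes were called, edgeR called 2 H2A genes and 1 H2B gene, each lower in KO. DESeq2 called 2 H2B genes higher, Hist1h2bh (log2 fold change 0.43, adjusted p 0.00283, edgeR FDR 0.0953) and Hist1h2bk (0.29, adjusted p 0.032, edgeR FDR 0.136).

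Within libraries, the H2A sum over the H2B sum was 0.972, 1.04 and 1.04 in WT footprints and 0.877, 0.831 and 0.83 in KO footprints. In RNA-seq it was 0.621, 0.634 and 0.626 in WT and 0.709, 0.699 and 0.701 in KO. The genotypes did not overlap in either assay, and KO was the lower in footprints and the higher in RNA-seq. This ratio was chosen after its values were seen: of the 10 ratios that 5 types allow, 4 did not overlap in footprints and 1 in RNA-seq. Without Hist2h2bb, the H2B gene with the most RNA reads, the RNA-seq groups overlapped (0.847 to 0.922 in WT and 0.874 to 0.98 in KO), while in footprints KO stayed lower (0.949 to 1.02 against 1.13 to 1.24).

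**Figure D4:**
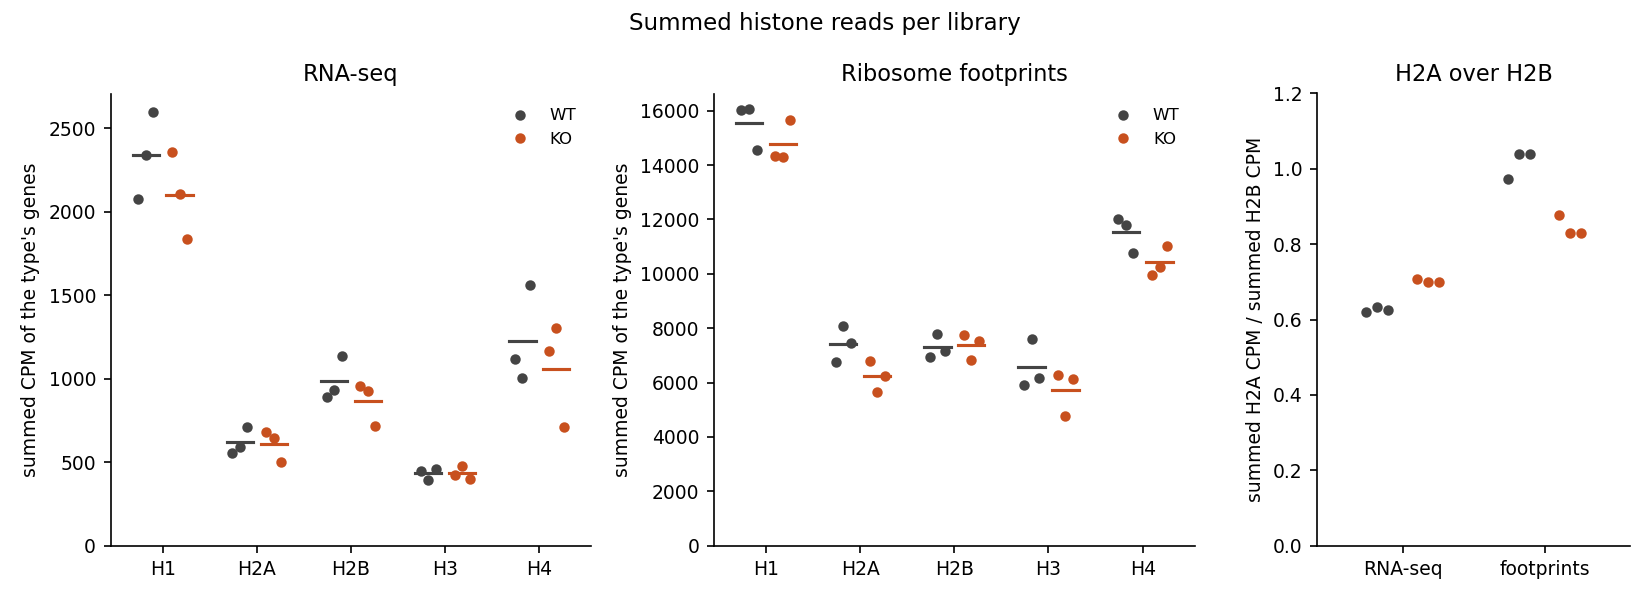
Summed CPM of the genes of each histone type in each library, in RNA-seq (left) and footprints (middle), and the H2A sum over the H2B sum (right). Points are libraries and short lines group means; the sums of the genotypes overlap in all types, while the H2A over H2B ratio lies between 0.83 and 0.877 in KO and between 0.972 and 1.04 in WT footprints.

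Adjacent H2A and H2B genes on opposite strands, which share the DNA between their starts, allow the types to be compared at the same site. RefSeq order and strand gave 7 such pairs among the members, all of the Hist1 cluster, so the other clusters are not covered. The footprint log2 fold change of the H2A gene was below that of its H2B partner in 7 of 7 pairs, with a median difference of -0.50, and none of these differences was tested. The widest gap was between Hist1h2ag (-0.79) and Hist1h2bj (0.20), and the next between Hist1h2ah (-0.48) and Hist1h2bk (0.29). In RNA-seq the H2A gene was below its partner in 2 of 7 pairs, with a median difference of 0.14. Members of a pair share libraries and are not independent observations.

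The members were also compared by position and promoter motif. The Hist1 genes fall into 3 runs of neighbours in RefSeq order that hold members, of 14, 5 and 28 genes. Their median footprint log2 fold changes were 0.04, -0.48 and -0.10, and their RNA-seq medians -0.15, -0.06 and -0.17. The run of 14, from Hist1h2bl on, holds Hist1h4m, Hist1h3i and Hist1h2bp, so genes called higher and lower lie in the same run. The median footprint change was -0.22 in H2A genes with the octamer and -0.25 in those without, and 0.01 and 0.22 in H2B genes. No test of these medians was made.

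Translation of the histone genes relative to their RNA was not called as changed in KO. Of 55 genes, 0 passed the interaction test of genotype and assay in edgeR, against 0.211% of all 11854 genes and, with the replicate block within assay, 0.0169%. An unadjusted p under 0.05 was found for 9 of the 55 histone genes and for 14% of all genes, and DESeq2 called 1, Hist1h2bf. That H2B gene had 22.4 ± 2.57 CPM in WT against 15.7 ± 2.07 CPM in KO RNA-seq, and 207 ± 24.8 and 246 ± 29.3 CPM in footprints (SD, n = 3). Its interaction was 0.77 on the log2 scale, with an edgeR FDR of 0.115 and a DESeq2 adjusted p of 0.0285.

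Within WT libraries, histone genes had far more footprints than their RNA reads would give at the average gene. Footprints were called higher than RNA for 54 of 56 genes and lower for 2, while of all 14385 genes 85.3% were called in either direction and 41.9% had higher footprints. The median log2 ratio was 3.40 for the histone genes and -0.02 for all genes. H3 genes had the highest median (4.40) and H1 genes the lowest (2.89), with H2A at 3.57, H4 at 3.35 and H2B at 3.15, and the ranges of the types overlapped. The ratio compares the assays within a gene; the RNA fragments cover whole transcripts and the footprints their coding part, and no length was used.

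Single genes ran from 1.41 for Hist1h4b to 5.29 for Hist1h3i, followed from the top by Hist2h3b (5.25), Hist1h3f (5.11) and Hist1h2ac (5.04). Hist1h3i had 56.1 ± 9.02 RNA-seq CPM and 1804 ± 88.3 footprint CPM in WT (SD, n = 3). Both exceptions lie outside the Hist1 cluster. Hist3h2a had 7.15, 9.07 and 7.3 CPM in WT RNA-seq but 0.515, 0.336 and 0.474 CPM in footprints (log2 ratio -3.85, SE 0.25), and Hist2h2be had 33.5 ± 7.98 and 10.2 ± 2.26 CPM (-1.40, SE 0.17). Hist3h2ba and Hist2h2bb of the same clusters had ratios of 2.72 and 2.26.

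**Figure D5:**
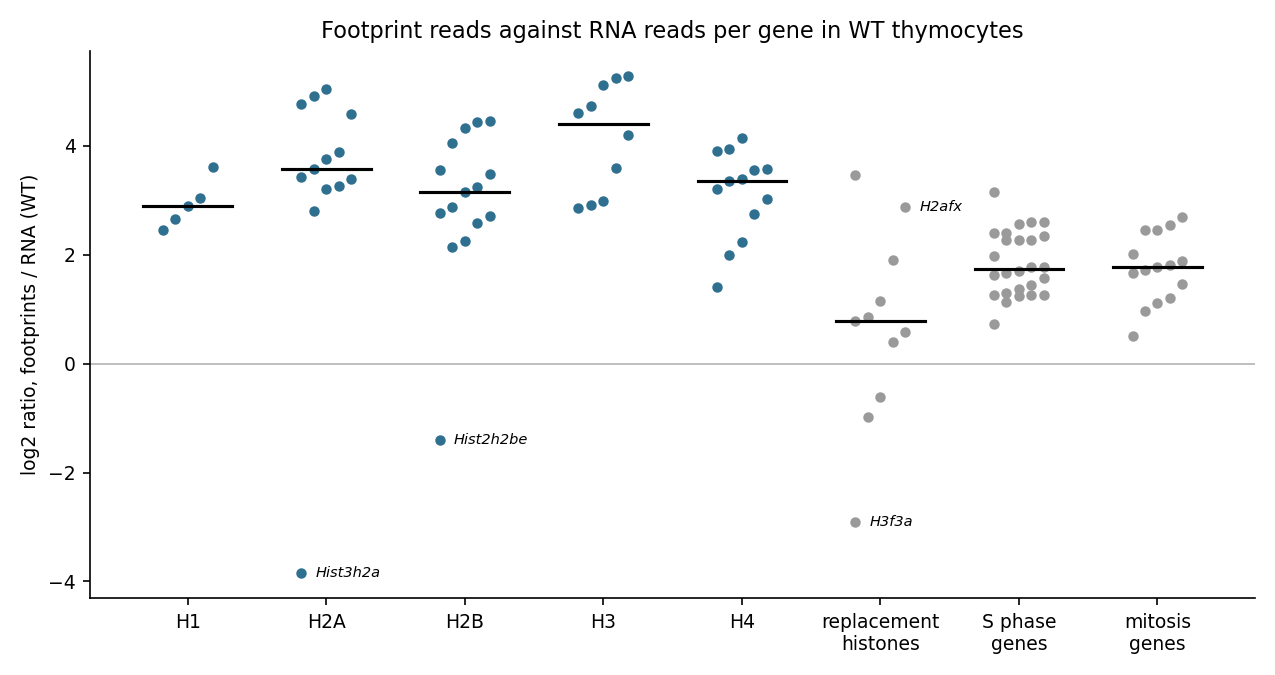
Log2 ratio of footprints to RNA in WT libraries, 1 point per gene, for the 5 histone types (blue) and for replacement histones, S phase genes and mitosis genes (grey); black lines are medians. The histone medians lie between 2.89 and 4.40 and those of the 3 other lists between 0.79 and 1.78, with Hist3h2a and Hist2h2be below 0.

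Replacement histone genes, whose mRNAs carry poly(A) tails, had a median log2 ratio of 0.79 over 11 genes tested. Their mRNAs were listed for comparison, and ran from -2.90 for H3f3a to 3.46 for H2afy2, the latter at 0.186 CPM of RNA. H3f3a had 35.9 CPM of RNA and 3.86 CPM of footprints in WT. Reads with several alignments were set aside in both assays, and their part in these ratios was not tested. H2afx, which encodes H2A.X and is known to yield both a stem-loop and a polyadenylated mRNA, had 2.88. The medians of S phase genes (1.73, 26 genes) and mitosis genes (1.78, 15 genes) were also above that of all genes and below that of the histones. Whether the RNA was selected for poly(A) tails is not given in the sources used here, and its part in the ratio was not tested. In RNA-seq 50.9% to 57.1% of counted reads lay outside annotated features, against 5.32% to 6.39% in footprints.

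In KO, 0 of 11 replacement histone genes were called in footprints by edgeR, with 2 at an unadjusted p under 0.05 and 0 by DESeq2, and 1 of 10 fell in RNA-seq. The latter was H1fx, a linker histone variant, with 5.57 ± 0.514 CPM in WT against 3.36 ± 0.431 CPM in KO (SD, n = 3; a log2 change of -0.74 at an edgeR FDR of 0.0327, and of 0.453 with the block). The SE of H1fx, 0.14, was smaller than counting error alone would give for so few reads. H2afx had 744 ± 37.1 and 836 ± 39.2 footprint CPM and was not called.

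The genes that make, bind or degrade histone mRNA gave 6 calls of 31 by edgeR in footprints, 3 higher and 3 lower, a share close to the 17.6% of all genes, and 0 in RNA-seq, where 6 had an unadjusted p under 0.05 and DESeq2 called 1. Pou2f1, the octamer-binding factor, had 45.1, 47.3 and 43.2 CPM in WT against 61.6, 58.5 and 63.8 CPM in KO footprints (log2 fold change 0.43, edgeR FDR 0.00428). It was the 1 gene of the list called with the block (0.0464). Eri1, an exonuclease that trims the histone stem-loop, had 89.2 ± 2.86 and 107 ± 3.81 CPM (0.28, edgeR FDR 0.00847), and Cstf2, a 3′ processing factor, 136 ± 1.82 and 149 ± 1.71 CPM (0.13, edgeR FDR 0.0316).

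On the lower side were Zfp473, a protein of the histone 3′ processing complex, with 3.14 ± 0.0649 and 1.64 ± 0.0719 footprint CPM (SD, n = 3; a log2 change of -0.95 at an edgeR FDR of 0.00364), Cdk2, the S phase kinase, with 221 ± 13.7 and 182 ± 11.8 CPM (-0.27, edgeR FDR 0.0329), and the terminal uridylyltransferase Tut1 (-0.22, edgeR FDR 0.0252). The spread of Zfp473 was smaller than counting error alone would give for so few reads, so it overstates the separation. With the block its edgeR FDR was 0.165. Slbp, the stem-loop binding protein, had 281 ± 12.3 and 284 ± 13.4 footprint CPM and was not called in either assay. HINFP, the H4 promoter factor, was encoded at 30.5 CPM in WT against 38.8 CPM in KO footprints by Hinfp, which was not called (edgeR FDR 0.0689).

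S phase and mitosis genes gave 0 calls by edgeR in either assay. Of 26 S phase genes, 3 in RNA-seq and 4 in footprints had an unadjusted p under 0.05, and DESeq2 called 0 and 1. Of 15 mitosis genes, 3 and 3 had such a p, and DESeq2 called none. The summed S phase level was 2018 to 2414 CPM in WT and 2050 to 2483 CPM in KO RNA-seq, and 6974 to 7987 and 6679 to 7685 CPM in footprints, overlapping in both assays as the histone sums did.

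A further 13 gene rows carry names of clustered histones but do not appear in the authors' comparison tables. Of these, 3 encode histones known from the testis. Hist1h1t, the testis linker histone, had 57 to 81 footprint reads in WT and 11 to 58 in KO libraries. Hist1h2ba had 36 to 78 in WT and 15 to 47 in KO, and Hist1h2aa 20 to 37 and 10 to 34, libraries of unequal depth. RNA-seq held 33, 18 and 7 reads of these genes in all 6 libraries together.

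The remaining rows were close to empty. Hist1h2ao and Hist1h2bq, which flank Hist1h4m in RefSeq order, and their counterparts Hist1h2ap and Hist1h2br beside Hist1h4n had 0 to 3 reads in total in each assay. No read of Hist2h3c1 was counted in any of the 12 libraries. At 3 counts per library this allows 0.168 to 0.737 CPM in footprints, for counting error only. Reads with several alignments, 13.1% to 20.5% of counted reads in RNA-seq and 17.7% to 18.6% in footprints, were set aside, so low values of genes with a near-identical copy do not show that they are silent.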

How the data were processed

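RNA-seq and ribosome footprint libraries of thymocytes were assigned to groups from their titles. The authors deposited whole-number read counts per Ensembl gene, 1 table per assay, named as adjusted; how, and with which genome build, gene annotation or strand option, is not given in the sources used here. Tools named, per the submitters' processing notes, are FastQC, Bowtie2 2.5.1, STAR 2.7.10a, HTSeq 2.0.3 and DESeq2 1.40.2, without their roles. Per the file headers, 5 rows hold reads outside genes, ambiguous or with several alignments; they were left out of library sizes, and reads in genes were 27% to 28.5% of counted reads in RNA-seq and 72.3% to 73.1% in footprints. The authors' deposited tables of log2 fold changes and adjusted p-values gave the gene symbols that chose the members, and 12 per-library columns there were not used. Other symbols were looked up by gene ID (54587 by versioned and 567 by unversioned ID). All 56 members matched a RefSeq gene (GRCm38.p6), of which only promoter sequences, strand and order were used.

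Counts were fitted with edgeR 4.0.16 in R 4.3.3 (TMM, filterByExpr with a minimum count of 10, quasi-likelihood test, Benjamini-Hochberg FDR under 0.05 over all genes tested). Translation was the interaction of genotype and assay over genes that passed the filter in both assays; WT footprints were compared with WT RNA in the same way. The SE is the log2 fold change divided by the square root of F. The fits were tested on simulated counts of independent libraries, which do not mirror each other as the deposited ones do. That test therefore does not check the FDRs of these data. Library pairs of a group differed by more than sampling noise (chi-square per degree of freedom 3.14 to 11.6), and each was fitted as 1 replicate. No label says that they are separate mice beyond the study's design of 3 mice per genotype. As KO libraries mirror their WT namesakes, the libraries of an assay are not independent of each other. The fits without the block treat them as independent, so their p-values and FDRs may be too small. Omitting a WT library and omitting its KO namesake are likewise not separate checks. The members, lists, motifs and named genes (the 3 genes per type with the most footprints, every called member, Hist1h4m, the testis genes and the called genes of the histone mRNA list) were chosen with earlier results of these data known. Alternatives were RLE factors, DESeq2 1.42.0, no low-count filter, an FDR of 0.1, unscaled totals, the replicate block, a joint fit and the omission of each library. RNA-seq depth gives a floor of 0.367 to 0.67 CPM per library, for counting error only.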

Additional observations from a re-analysis of the deposited data

How the results depend on the processing

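Counts of called histone genes depended on the setting, and their directions did not reverse. In RNA-seq, 3 were called. The replicate block gave 1, DESeq2 2, the joint fit 2, no filter 4 and the omission of single libraries 1 to 2. In footprints, 9 were called. DESeq2 gave 15 (3 higher and 12 lower), no filter 17 (2 higher and 15 lower) and the block 4. The joint fit gave 10 (2 higher and 8 lower), without Hist4h4, Hist1h1d, Hist1h2ah and Hist2h4. The omission of single libraries gave 5 to 9, with 5 without KO replicate 2. For translation, 0 were called; DESeq2 gave 1 and no filter 9, both blocks 0 and single omissions 0. For footprints against RNA in WT, 56 were called under each setting run. Hist1h4m was called higher in both assays under each setting run. The median and summed differences moved by less than their within-group SD in each setting: without single libraries the median ranged between -0.26 and -0.07 for RNA-seq and between -0.17 and -0.06 for footprints, the sum of all members between -0.22 and -0.02 and between -0.15 and -0.08, and the H4 sum between -0.39 and 0.01 and between -0.19 and -0.11. Over genes of at least 10 CPM, differences from the group mean correlated between WT and KO namesakes at -0.98 to -0.96 in RNA-seq and -0.99 in footprints. Between WT and KO libraries of different numbers the values were 0.21 to 0.70 in RNA-seq and 0.38 to 0.63 in footprints. The replicate number is therefore tied to the deposited values. Why was not tested, as the adjustment of the counts is not described. Whether a call lost under the block is a weaker effect cannot be decided here. The SE of the translation test did not follow read number. It was 0.14 for Hist1h2bp, with 147 RNA-seq reads over the WT libraries, and 0.40 for Hist1h4d, with 4588. Counting error alone would give Hist1h2bp a larger SE, so a small SE of a gene with few reads does not show a precise measurement. After the data were seen, Hist1h4m was left out of the H4 sum, which then differed by -0.24 in RNA-seq and -0.19 in footprints (log2), and Hist2h2bb was left out of the H2B sum, which left the KO over WT difference of the H2A over H2B ratio at 0.09 and -0.30 (log2).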
